A study of Homo sapiens with 20 samples.

Results

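TNF, lymphotoxin beta (LTB) and lymphotoxin alpha (LTA), the NF-κB subunits NFKB1, NFKB2, RELA and RELB, the NF-κB inhibitors NFKBIA and TNFAIP3, and the survival gene IER3 were followed through RNAseq and ATACseq of HL60 cells, a human promyelocytic acute myeloid leukemia (AML) line. These 10 genes, of 28051 named genes in the RNAseq files, were taken by symbol. The list was drawn up with the RNAseq difference between genotypes in view, so the members count as chosen by that contrast, which is described below without a test. Of the 8286 open-chromatin regions in the ATACseq files, the 8 whose list of genes held a member were taken. HL60 cells in which hexokinase 3 (HK3) had been targeted with CRISPR/Cas9 (HK3-null) and HL60 cells expressing Cas9 alone (Cas9 control) were each given 1 µM all-trans retinoic acid (ATRA), a drug that drives granulocytic differentiation, or 0.01% DMSO as its diluent, for 36 h. Each of the 4 groups held 3 RNAseq and 2 ATACseq libraries. All cells, controls included, expressed Cas9, and all HK3-null libraries carry 1 knockout name. The knockout lines of the study were clonal, so a property of this clone and the loss of HK3 cannot be told apart here. The study calls the libraries of a condition biological replicates. Nothing in the labels says that the libraries of a group came from separate clones, so the p-values below measure only the spread between these libraries, and not between clones. The ATRA effect averaged over genotypes is orthogonal to the genotype contrast by which the members were chosen. ATRA effects within 1 genotype, and their difference, are not, and the members' p-values for them carry that limit.

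TNF and the lymphotoxins are cytokines of the TNF superfamily, encoded side by side in the class III region of the major histocompatibility complex. Signalling from their receptors frees NF-κB dimers from inhibitor proteins: RELA with the p50 product of NFKB1 in the canonical branch, and RELB with the p52 product of NFKB2 in the non-canonical branch that lymphotoxin can engage. NF-κB in turn drives genes that shut it off again, among them NFKBIA (IκBα) and TNFAIP3 (A20), and drives TNF itself, so that the pathway holds feedback loops in both directions. In myeloid cells this circuit is known for inflammation, survival and differentiation.

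The RNAseq libraries held 29056349 to 31549781 normalized counts, that is, read counts that the authors had scaled to be comparable between libraries, and an estimated 22700000 to 37000000 reads before scaling. HK3 itself had 90, 65 and 105 normalized counts in Cas9 control DMSO, 344, 302 and 346 in HK3-null DMSO, 1305, 1298 and 1850 in Cas9 control ATRA and 1384, 1285 and 1975 in HK3-null ATRA. Libraries with the HK3-null label thus had about as much HK3 RNA as their controls, or more, and HK3-null below means that label. A frameshift made by Cas9 can leave the RNA in place, so these values do not check the knockout. The study reports that it verified its knockout clones by sequencing the targeted DNA and by mass spectrometry of the protein. All 10 markers of promyelocytes and the neutrophil lineage were detected above the expression filter, with 579458 to 905107 summed normalized counts in every library. Single genes among these 10 moved with genotype in both directions. LYZ had 7998 to 8687 normalized counts in Cas9 control DMSO and 45149 to 47014 in HK3-null DMSO. CTSG had 11535 to 12456 in Cas9 control DMSO and 3407 to 3561 in HK3-null DMSO. Markers of other cells moved with genotype too. The 8 T and NK cell markers summed to 224 to 252 in Cas9 control DMSO, 299 to 324 in Cas9 control ATRA, 588 to 607 in HK3-null DMSO and 1184 to 1310 in HK3-null ATRA, mostly from NKG7 and TRAC, while CD3D, CD3G and CD2 had at most 2 normalized counts in every library. The 4 eosinophil markers summed to 7260 to 8172 in Cas9 control DMSO and 163481 to 171200 in HK3-null DMSO, and to 274 to 411 and 43159 to 52189 with ATRA. Most of these sums came from PRG2. CLC among them was higher with ATRA, with 4 to 7 in Cas9 control DMSO, 12 to 20 in Cas9 control ATRA, 156 to 213 in HK3-null DMSO and 317 to 410 in HK3-null ATRA. The 6 monocyte markers summed to 110 to 128 in Cas9 control DMSO, 338 to 490 in Cas9 control ATRA, 376 to 386 in HK3-null DMSO and 359 to 475 in HK3-null ATRA, and CD14 among them had 2 to 4 normalized counts in Cas9 control DMSO and 116 to 125 in HK3-null DMSO. The monocyte marker CSF1R was lower in HK3-null with ATRA, with 278 to 422 in Cas9 control ATRA and 116 to 228 in HK3-null ATRA. The 5 B cell markers summed to 49 to 61 in Cas9 control DMSO, 83 to 108 in Cas9 control ATRA, 148 to 177 in HK3-null DMSO and 163 to 194 in HK3-null ATRA, with MS4A1 at 0 throughout. Among them PAX5 had 0 to 2 in Cas9 control DMSO and 92 to 119 in HK3-null DMSO, while CD79A had 45 to 57 and 49 to 60. The part of all these markers in the differences between genotypes below was not tested. 1 library, Cas9 control DMSO replicate 1, had 16750 genes above 0, against 15031 to 15801 in the others. In bulk samples such as these, fewer cells of a kind and less RNA per cell cannot be told apart.

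The promoters below show where the members match a consensus of the letters that NF-κB dimers are known to bind. Each window runs from 250 bases before to 50 bases after the start of transcription (RefSeq, GRCh38.p14), 5′ to 3′ on the strand of the gene, and capitals mark matches to the κB consensus of 10 letters, searched on both strands. TNF lies at chr6:31575315-31575614 on the plus strand, LTB at chr6:31582376-31582675 on the minus strand, NFKB1 at chr4:102501109-102501408 on the plus strand, NFKBIA at chr14:35404700-35404999 on the minus strand and TNFAIP3 at chr6:137867009-137867308 on the plus strand.
TNF: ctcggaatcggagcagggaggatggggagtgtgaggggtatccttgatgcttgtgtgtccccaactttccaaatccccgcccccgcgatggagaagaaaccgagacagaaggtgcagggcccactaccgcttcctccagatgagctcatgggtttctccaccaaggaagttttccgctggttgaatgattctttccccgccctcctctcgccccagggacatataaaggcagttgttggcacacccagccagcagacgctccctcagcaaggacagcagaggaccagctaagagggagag
LTB: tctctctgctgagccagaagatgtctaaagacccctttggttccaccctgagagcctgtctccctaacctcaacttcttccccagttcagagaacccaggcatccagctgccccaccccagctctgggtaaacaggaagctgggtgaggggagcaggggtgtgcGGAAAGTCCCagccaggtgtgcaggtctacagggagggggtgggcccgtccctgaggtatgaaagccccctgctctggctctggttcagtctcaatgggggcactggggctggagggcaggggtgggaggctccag
NFKB1: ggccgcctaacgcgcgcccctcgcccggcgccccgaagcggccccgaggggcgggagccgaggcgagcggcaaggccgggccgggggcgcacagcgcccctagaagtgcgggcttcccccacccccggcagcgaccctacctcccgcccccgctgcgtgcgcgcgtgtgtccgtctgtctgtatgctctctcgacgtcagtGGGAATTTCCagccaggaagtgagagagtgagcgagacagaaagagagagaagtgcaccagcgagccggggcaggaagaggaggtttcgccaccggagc
NFKBIA: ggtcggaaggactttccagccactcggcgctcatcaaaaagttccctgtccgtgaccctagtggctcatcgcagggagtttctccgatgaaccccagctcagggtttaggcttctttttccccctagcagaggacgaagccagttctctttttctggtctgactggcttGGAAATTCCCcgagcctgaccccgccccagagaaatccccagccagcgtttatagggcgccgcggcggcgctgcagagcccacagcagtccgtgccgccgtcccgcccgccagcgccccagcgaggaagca
TNFAIP3: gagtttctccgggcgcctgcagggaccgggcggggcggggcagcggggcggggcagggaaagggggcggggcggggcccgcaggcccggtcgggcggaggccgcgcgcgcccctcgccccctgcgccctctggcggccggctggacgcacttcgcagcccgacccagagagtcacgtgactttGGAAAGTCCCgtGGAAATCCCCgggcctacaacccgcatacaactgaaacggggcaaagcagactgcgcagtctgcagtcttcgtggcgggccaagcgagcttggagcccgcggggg

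The LTB match began 86 bases before the start, that of NFKB1 49 bases before it, that of NFKBIA 81 bases before it, and those of TNFAIP3 67 and 55 bases before it. NFKB2 held the consensus in 2 of its 3 windows and LTA in 1 of 2. Neither the TNF window nor the RELA windows held a full match to this consensus, and for RELB and IER3 no window is shown. Sites that depart from the consensus were not searched, so a window without a match may still hold a κB site. Over all 35116 promoter windows, 5.91% held the consensus. The letters AGGTCA, which retinoic acid receptors are known to bind, present in 13.8% of all promoter windows, was in none of the members' windows. These matches are letters and not measured binding.

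TNF was the member whose level ATRA moved furthest in Cas9 control cells, and it was far higher in HK3-null than in Cas9 control cells with either treatment. Normalized counts of TNF were 175, 160 and 90 in Cas9 control DMSO, 54, 52 and 32 in Cas9 control ATRA, 2262, 1839 and 1279 in HK3-null DMSO and 1826, 1854 and 1075 in HK3-null ATRA. Every HK3-null library stood above every Cas9 control library, the ATRA and DMSO libraries of Cas9 control did not overlap, and those of HK3-null did. With ATRA, TNF fell 3.04-fold in Cas9 control (log2 fold change -1.60 ± 0.32, SE; limma, adjusted p = 0.00206). In HK3-null the change was -0.18 ± 0.32 on the log2 scale with a 95% interval from -0.89 to 0.52 (limma, adjusted p = 0.672). With the replicate number fitted as a block, the SE was 0.079 in each genotype (limma, adjusted p = 8.79e-08 in Cas9 control and 0.0678 in HK3-null). Averaged over both genotypes, TNF fell with ATRA by 0.89 on the log2 scale (limma, adjusted p = 0.00553). Between genotypes, TNF was 12.8-fold higher in HK3-null with DMSO and 34.3-fold higher with ATRA, a description only.

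LTB, the membrane-bound partner that forms lymphotoxin heterotrimers with LTA, had a pattern like that of TNF at a smaller size. Its normalized counts were 46, 47 and 33 in Cas9 control DMSO, 30, 30 and 22 in Cas9 control ATRA, 388, 432 and 423 in HK3-null DMSO and 362, 393 and 393 in HK3-null ATRA. The Cas9 control groups did not overlap each other, and both lay below all HK3-null libraries. LTB fell 1.53-fold with ATRA in Cas9 control (log2 fold change -0.62 ± 0.17; limma, adjusted p = 0.0132), a call that was lost without Cas9 control DMSO replicate 2 (limma, adjusted p = 0.0521). In HK3-null, the log2 change was -0.11 with a 95% interval from -0.49 to 0.26 (limma, adjusted p = 0.612). Averaged over genotypes, LTB fell by 0.37 on the log2 scale (limma, adjusted p = 0.0219), which did not hold without Cas9 control DMSO replicate 2 (limma, adjusted p = 0.0521), HK3-null ATRA replicate 1 (limma, adjusted p = 0.0502) or HK3-null DMSO replicate 2 (limma, adjusted p = 0.0514). These fits without single libraries had no replicate term. With the replicate block and all libraries, LTB passed in Cas9 control (limma, adjusted p = 0.00498) and averaged over genotypes (limma, adjusted p = 0.0100). LTB was 9.98-fold higher in HK3-null with DMSO and 14.1-fold higher with ATRA.

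LTA, a secreted lymphotoxin, was near the limit of detection and was not tested. It had 2, 3 and 1 normalized counts in Cas9 control DMSO, 2, 0 and 0 in Cas9 control ATRA, 6, 5 and 9 in HK3-null DMSO and 9, 3 and 14 in HK3-null ATRA. The HK3-null DMSO libraries were above the Cas9 control DMSO libraries, and the HK3-null ATRA libraries were above those of Cas9 control ATRA.

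**Figure D1:**
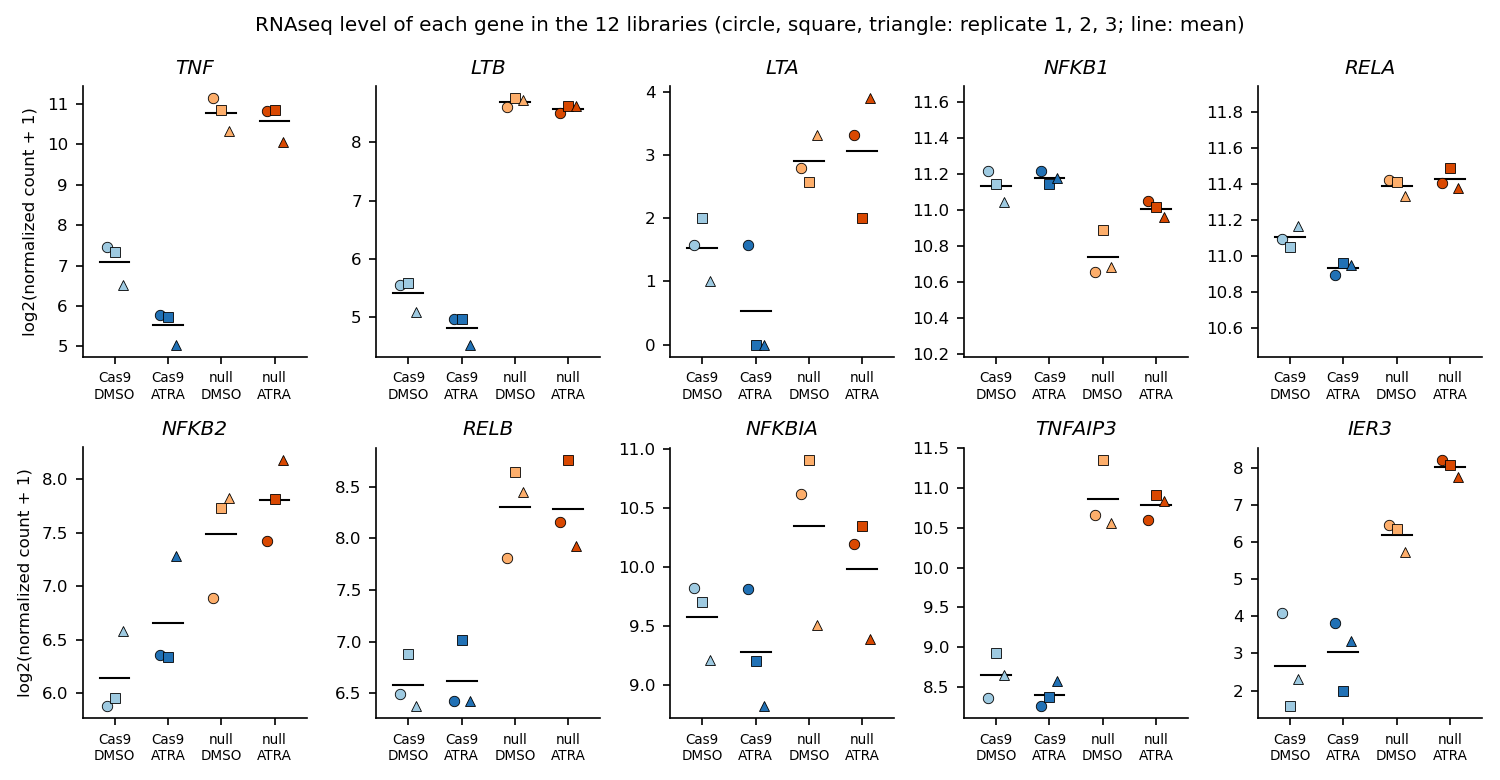
RNAseq level of the 10 genes as log2(normalized count + 1) in each library, by group, with circles, squares and triangles for replicates 1, 2 and 3 and a line at the mean; each panel has its own axis range. TNF lies between 32 and 175 normalized counts in the Cas9 control libraries and between 1075 and 2262 in the HK3-null libraries, whereas NFKB1 and RELA vary over a narrow range.

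The canonical subunits had small differences. NFKB1, the precursor of p50, had 2377, 2262 and 2113 normalized counts in Cas9 control DMSO, 2381, 2258 and 2314 in Cas9 control ATRA, 1612, 1893 and 1642 in HK3-null DMSO and 2118, 2070 and 1989 in HK3-null ATRA. It was the member that was lower in HK3-null, 1.31-fold with DMSO and 1.13-fold with ATRA, with no overlap of the libraries. With ATRA, NFKB1 rose 1.20-fold in HK3-null (log2 fold change 0.27 ± 0.07; limma, adjusted p = 0.00721). In Cas9 control its log2 change was 0.04 ± 0.07 (limma, adjusted p = 0.650), and averaged over genotypes it rose by 0.16 on the log2 scale (limma, adjusted p = 0.0170).

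RELA (p65), the transactivating subunit of the canonical dimer, had 2188, 2120 and 2300 normalized counts in Cas9 control DMSO, 1906, 1993 and 1977 in Cas9 control ATRA, 2744, 2725 and 2583 in HK3-null DMSO and 2714, 2873 and 2665 in HK3-null ATRA. RELA fell 1.12-fold with ATRA in Cas9 control (log2 fold change -0.17 ± 0.05; limma, adjusted p = 0.0204). That call was lost without Cas9 control ATRA replicate 1 (limma, adjusted p = 0.0610) or Cas9 control DMSO replicate 3 (limma, adjusted p = 0.0751), and with quantile normalization (0.0502). None of these fits had a replicate term, and with the replicate block and all libraries the call held (limma, adjusted p = 0.0102). In HK3-null the RELA change with ATRA was 0.04 ± 0.05 on the log2 scale (limma, adjusted p = 0.602). RELA was 1.22-fold higher in HK3-null with DMSO and 1.40-fold higher with ATRA.

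The non-canonical subunits had larger differences between genotypes than the canonical subunits. NFKB2, the precursor of p52, had 58, 61 and 95 normalized counts in Cas9 control DMSO, 81, 80 and 155 in Cas9 control ATRA, 118, 212 and 226 in HK3-null DMSO and 171, 224 and 289 in HK3-null ATRA. It was 2.56-fold higher in HK3-null with DMSO and 2.23-fold higher with ATRA, without overlap. RELB, its dimer partner, had 89, 117 and 82 normalized counts in Cas9 control DMSO, 85, 128 and 85 in Cas9 control ATRA, 223, 400 and 348 in HK3-null DMSO and 285, 433 and 242 in HK3-null ATRA. RELB was 3.31-fold and 3.18-fold higher in HK3-null with DMSO and with ATRA. Neither gene passed the ATRA test without a replicate term. With the replicate number as a block, which the libraries' shared deviations called for, NFKB2 rose with ATRA by 0.42 on the log2 scale averaged over genotypes (limma, adjusted p = 0.00886, against 0.147 without the block) and by 0.53 in Cas9 control (limma, adjusted p = 0.0220, against 0.236). For RELB the averaged log2 change was 0.01 with a 95% interval from -0.42 to 0.44.

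Among the feedback inhibitors, the TNFAIP3 libraries did not overlap between genotypes, whereas those of NFKBIA did. TNFAIP3, a ubiquitin-editing enzyme that switches NF-κB signalling off, had 329, 486 and 400 normalized counts in Cas9 control DMSO, 306, 332 and 381 in Cas9 control ATRA, 1621, 2616 and 1513 in HK3-null DMSO and 1554, 1923 and 1831 in HK3-null ATRA. It was 4.65-fold higher in HK3-null with DMSO and 5.21-fold higher with ATRA, and its averaged log2 change with ATRA was -0.16 ± 0.14 (limma, adjusted p = 0.358). NFKBIA, which holds NF-κB dimers in the cytoplasm, had 905, 831 and 591 normalized counts in Cas9 control DMSO, 900, 590 and 452 in Cas9 control ATRA, 1568, 1919 and 727 in HK3-null DMSO and 1173, 1302 and 672 in HK3-null ATRA. Its groups overlapped between genotypes with each treatment, but within every replicate number NFKBIA was higher in HK3-null than in Cas9 control, with DMSO and with ATRA. Its level in HK3-null was 1.70-fold that of Cas9 control with DMSO and 1.62-fold with ATRA. The averaged ATRA change of NFKBIA was -0.33 ± 0.27 on the log2 scale (limma, adjusted p = 0.310), and it passed with the replicate block (limma, adjusted p = 0.0327).

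IER3, an immediate early gene that modulates NF-κB signalling and apoptosis, had 16, 2 and 4 normalized counts in Cas9 control DMSO, 13, 3 and 9 in Cas9 control ATRA, 87, 81 and 52 in HK3-null DMSO and 295, 269 and 213 in HK3-null ATRA. All HK3-null ATRA libraries stood above all HK3-null DMSO libraries, and both above Cas9 control. IER3 cleared the expression filter only through HK3-null, so its place among the tested members rests on the groups in which it was high. IER3 rose 3.59-fold with ATRA in HK3-null (log2 fold change 1.84 ± 0.70; limma, adjusted p = 0.0464). This call did not hold without any 1 of the 6 HK3-null libraries (limma, adjusted p from 0.0723 to 0.127), Cas9 control ATRA replicate 3 (limma, adjusted p = 0.0539) or Cas9 control DMSO replicate 3 (limma, adjusted p = 0.0564), nor without the variance trend (0.0665) or without a filter on low values (0.0653). None of these fits had a replicate term, and with the replicate block and all libraries the call held (limma, adjusted p = 0.0120). In Cas9 control the log2 change was 0.49 with a 95% interval from -1.04 to 2.01 (limma, adjusted p = 0.616). Averaged over genotypes, IER3 changed by 1.16 on the log2 scale (limma, adjusted p = 0.0615), and it passed with the replicate block (limma, adjusted p = 0.0183), as log2(normalized count + 1) (0.0314), without Cas9 control ATRA replicate 2 (0.0206) and without Cas9 control DMSO replicate 1 (0.00483). IER3 was 14.2-fold higher in HK3-null with DMSO and 36.4-fold higher with ATRA.

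Of the 9 members tested, 3 passed the ATRA test averaged over genotypes, NFKB1 upwards and TNF and LTB downwards, against 58.6% of all 13256 genes tested. With the replicate block, 6 members passed, against 68.9% of all genes. In Cas9 control, TNF, LTB and RELA passed, all 3 downwards. Of all genes 41.6% passed there, 20.3% upwards and 21.3% downwards. With the block NFKB2 passed too, against 55.9% of all genes. In HK3-null, NFKB1 and IER3 passed, both upwards, against 49% of all genes, 24% upwards and 25.1% downwards. IER3 cleared the expression filter only through HK3-null, so its place in this count rests on the groups in which it was high. The same count passed with the block, against 61.3% of all genes. ATRA and DMSO libraries did not overlap for 3 members in Cas9 control, all lower, and for 2 in HK3-null, both higher. Of all genes, 25.4% were higher and 25.9% lower without overlap in Cas9 control, and 29.6% and 29% in HK3-null. The median log2 change with ATRA over the 9 members was -0.17 in Cas9 control and -0.02 in HK3-null, against 0.00 and 0.01 over all genes. A share near or below that of all genes does not set the members apart in their response to ATRA.

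Whether the ATRA response differed between genotypes was tested as the interaction, which is also the difference between the 2 genotype contrasts. Those contrasts were in view when the members were chosen, so the interaction is not independent of that choice. Its p-values for members are given as a description. No member passed in limma without a replicate term, where 9.12% of all genes did. At an unadjusted p under 0.05, 3 members (TNF, NFKB1, RELA) did, against 21.6% of all genes. The TNF response was less negative in HK3-null by 1.42 on the log2 scale (95% interval 0.42 to 2.42; limma, adjusted p = 0.0825). It passed without Cas9 control DMSO replicate 3 (limma, adjusted p = 0.0337), without HK3-null ATRA replicate 3 (0.0421) and with quantile normalization (0.0443). With the replicate block the same difference passed (limma, adjusted p = 2.25e-05), and so did that of RELA, 0.20 on the log2 scale (limma, adjusted p = 0.0496, against 0.116 without the block). 21.9% of all genes passed with the block. The interaction of LTB was 0.50 with a 95% interval from -0.03 to 1.03 (limma, adjusted p = 0.259), that of NFKB1 0.22 (limma, adjusted p = 0.207) and that of IER3 1.36 with a 95% interval from -0.80 to 3.52 (limma, adjusted p = 0.487).

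**Figure D2:**
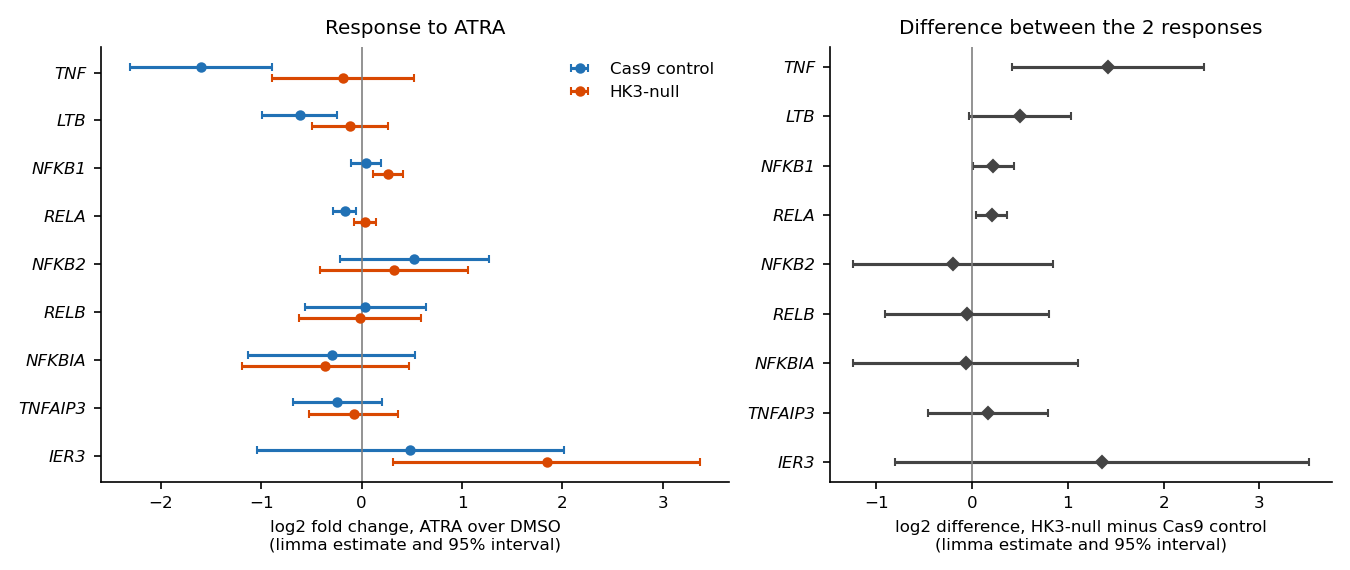
Left, limma log2 fold change of ATRA over DMSO with its 95% interval for the 9 tested members, Cas9 control in blue and HK3-null in orange; right, the difference between both responses (HK3-null minus Cas9 control). The TNF interval in Cas9 control runs from -2.31 to -0.90, that in HK3-null includes 0, and the interval of the difference runs from 0.42 to 2.42. All intervals come from the fit without the replicate block.

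In the comparison of genotypes, 6 of the 9 tested members, TNF, LTB, NFKB2, RELB, TNFAIP3 and IER3, were at least 2-fold higher in HK3-null with DMSO, where 13% of all genes were. With ATRA the same 6 were, where 13.5% of all genes were. Libraries did not overlap for 7 members that were higher and 1, NFKB1, that was lower, with each treatment; the libraries of NFKBIA overlapped. Of all genes, 31.8% were higher and 31.9% lower without overlap in DMSO, and 32.2% and 31.2% in ATRA. The members had been chosen with these differences in view, so nothing is read from the counts.

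TNF, LTB, LTA, TNFAIP3 and IER3 all lie on chromosome 6, and genes of that chromosome were shifted as a whole. The median log2 difference between HK3-null and Cas9 control over the 608 tested genes of chromosome 6 was 0.53 with DMSO and 0.58 with ATRA, against 0.00 and 0.01 over all genes tested. Relative to the chromosome, TNF was higher in HK3-null by 3.15 on the log2 scale with DMSO and 4.53 with ATRA. LTB was higher by 2.79 and 3.24, IER3 by 3.30 and 4.61, and TNFAIP3 by 1.69 and 1.80. The part of the chromosome-wide shift in these values was not tested beyond this subtraction.

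Genes near TNF were compared between genotypes as a description. LST1, a leukocyte gene 7941 bases from TNF, had a log2 difference of 1.39 ± 0.06 with DMSO and 1.65 ± 0.06 with ATRA. NFKBIL1, an IκB-like gene 16736 bases away, had 1.25 ± 0.20 and 1.13 ± 0.20. NCR3, an NK cell receptor gene, had 0 to 4 normalized counts in Cas9 control and 7 to 17 in HK3-null, with log2 differences of 3.33 ± 2.29 with DMSO and 5.97 ± 2.29 with ATRA. The difference with ATRA is inflated by Cas9 control ATRA replicate 3, whose 0 is written as the log2 of 0.001. NCR3 cleared the expression filter only through HK3-null, where it was high. ATP6V1G2 had 0.40 ± 0.66 with DMSO and -2.30 ± 0.66 with ATRA, from 16, 11 and 19 normalized counts in Cas9 control ATRA and 4, 7 and 1 in HK3-null ATRA. It cleared the expression filter only through Cas9 control ATRA, where it was high. Over the 14 tested genes other than the members within 100 kb of TNF, the median log2 difference was 0.56 with DMSO and 0.86 with ATRA. TNF and LTB had 3.68 and 3.32 with DMSO and 5.10 and 3.82 with ATRA. Since both were chosen with this contrast in view, nothing is read from their standing against their neighbours.

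**Figure D3:**
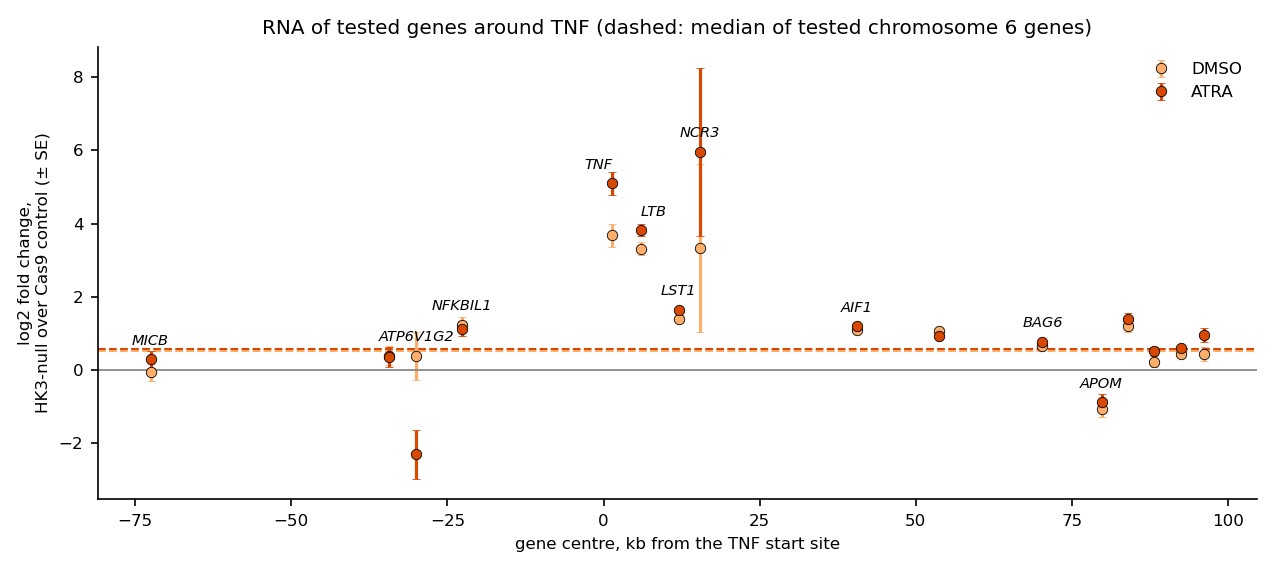
Log2 difference between HK3-null and Cas9 control (limma estimate ± SE) of tested genes within 100 kb of TNF, against the distance of the gene's centre from the TNF start in kb, with DMSO in light and ATRA in dark orange; LTA was not tested. TNF, LTB and the low-count gene NCR3 lie above 3, the other genes at or below 1.65, and the dashed lines mark the chromosome 6 medians of 0.53 and 0.58.

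Around IER3, FLOT1, a membrane raft protein gene 512 bases from it, was higher in HK3-null by 2.59 ± 0.14 on the log2 scale with DMSO and 1.49 ± 0.14 with ATRA. FLOT1 also had a large response to ATRA, with 183, 112 and 147 normalized counts in Cas9 control DMSO and 1567, 1362 and 1454 in Cas9 control ATRA. TUBB, the next tested gene, had log2 differences between genotypes of 0.11 ± 0.07 and 0.05 ± 0.07. Over the 8 tested genes within 100 kb the median was 0.59 with DMSO and 0.71 with ATRA. IER3, chosen with this contrast in view, had 3.83 and 5.19.

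ATACseq, which measures how open chromatin is to a transposase, gave 8 regions listed with a member, 7 on chromosome 6 and 1 in an intron of NFKB1. The signals are normalized by the authors, and the deposited regions had been selected on a difference between the genotypes with ATRA, where the smallest fold over all regions was 1.65. All 8 were higher in HK3-null in ATRA, by 2.11-fold to 23.3-fold, as the selection allows in that direction, and nothing is read from it. In DMSO, too, both HK3-null libraries were above both Cas9 control libraries in all 8 regions. Over all 8286 regions 50.1% were higher without overlap in DMSO and 53.5% in ATRA, and of the 670 regions on chromosome 6, 89.1% and 90.4% had higher means.

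ATACseq signal was lower with ATRA in 3 of the 5 regions at the TNF locus, averaged over genotypes, a contrast orthogonal to that selection. The region at the TNF start (chr6:31575321-31575879, over the start and coding exon) had signals of 114 and 119 in Cas9 control DMSO, 62.3 and 41.6 in Cas9 control ATRA, 220.4 and 280.2 in HK3-null DMSO and 178.5 and 159 in HK3-null ATRA. Within each genotype, both ATRA libraries were below both DMSO libraries. Averaged over genotypes, the signal fell by 0.87 on the log2(signal + 1) scale (SE 0.20; limma, adjusted p = 9.38e-04). Both the ATRA and the DMSO libraries of HK3-null were above those of Cas9 control.

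The region between TNF and LTB (chr6:31578604-31579450, intergenic, its centre 3462 bases downstream of the TNF start) had the largest ATRA change of the 7 tested regions. Its signals were 10.6 and 15.5 in Cas9 control DMSO, 2.28 and 2.44 in Cas9 control ATRA, 134 and 175 in HK3-null DMSO and 45.3 and 64.9 in HK3-null ATRA. The 4 groups did not overlap, and ATRA lowered the signal by 1.76 on the log2(signal + 1) scale averaged over genotypes (SE 0.26; limma, adjusted p = 1.54e-06).

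Another region at this locus, in an exon of NFKBIL1 upstream of LTA (chr6:31558184-31559530), had signals of 341 and 385 in Cas9 control DMSO, 174 and 147 in Cas9 control ATRA, 575 and 616 in HK3-null DMSO and 289 and 387 in HK3-null ATRA. It fell with ATRA by 1.00 on the log2(signal + 1) scale (SE 0.20; limma, adjusted p = 1.24e-04). The region in LTB (chr6:31580775-31581272, over exons), whose central 300 bases held 1 κB match as 4.33% of such windows over all regions did, changed by -0.20 with a 95% interval from -0.61 to 0.20 (limma, adjusted p = 0.482). The region 6712 bases upstream of the TNF start (chr6:31568646-31569060) changed by 0.33 with an interval from -0.15 to 0.82 (limma, adjusted p = 0.320). In that region Cas9 control ATRA replicates had signals of 63.8 and 22.5, and without replicate 2 it passed (limma, adjusted p = 0.00892).

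Of both regions near IER3, 1 passed the ATRA test, upwards. The region over IER3 itself (chr6:30744214-30744683) had signals of 30.0 and 18.6 in Cas9 control DMSO, 22.1 and 16.5 in Cas9 control ATRA, 79.4 and 71.3 in HK3-null DMSO and 57.2 and 68.1 in HK3-null ATRA, and its averaged log2 change was -0.28 with an interval from -0.75 to 0.19 (limma, adjusted p = 0.394). The region 5909 bases upstream of the IER3 start (chr6:30750241-30750671) had signals of 6.54 and 7.46, 12.9 and 12.5, 25.2 and 19.1, and 29.2 and 45.7 in the same order of groups. It rose with ATRA by 0.74 on the log2(signal + 1) scale (limma, adjusted p = 0.0459), a call lost without any 1 of 7 libraries (limma, adjusted p from 0.0605 to 0.193). The NFKB1 intron region (chr4:102564420-102564733) was below the signal filter and not tested, with signals of 1.00 to 11.0 in Cas9 control and 15.8 to 18.9 in HK3-null.

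**Figure D4:**
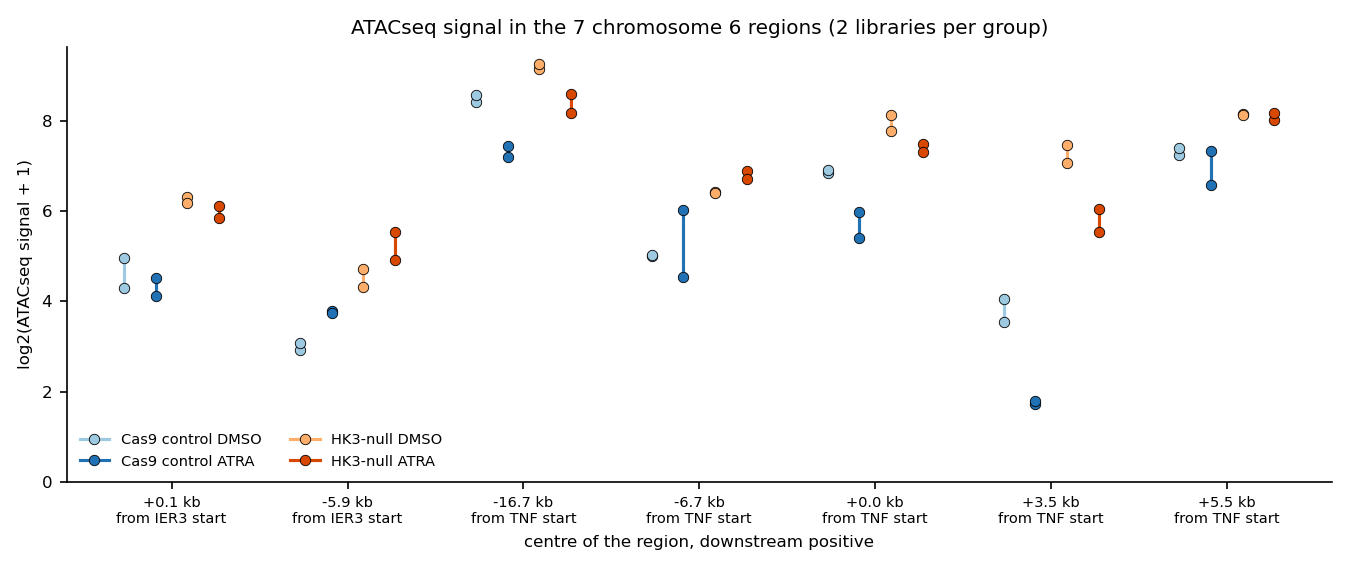
ATACseq signal as log2(signal + 1) in the 7 chromosome 6 regions, labelled by the distance of their centre from the start of TNF or IER3, with 1 point per library and a line joining both libraries of a group. The region between TNF and LTB (+3.5 kb) runs from 2.28 in Cas9 control ATRA to 175 in HK3-null DMSO, and the HK3-null points lie above the Cas9 control points of the same treatment in each region.

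Of the 7 tested regions, 3 fell and 1 rose with ATRA, against 22.5% and 6.4% of the 6214 regions tested. At TNF, RNA and chromatin signal at the start were both lower with ATRA in Cas9 control. In HK3-null the libraries of the start region did not overlap between treatments, while the TNF RNA libraries did. Each group held 2 ATACseq but 3 RNAseq libraries, so a lack of overlap is easier to reach in ATACseq. The limma log2 change of the start region in HK3-null was -0.56 with a 95% interval from -1.14 to 0.015. Both that interval and the one of TNF RNA in HK3-null include 0, so nothing is read from this difference in overlap.

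The wider pathway was read from 121 other genes, of which 107 were tested. The list was drawn up with earlier results of these data known. Its counts, here and by role below, are therefore a description, and nothing is read from their standing against all genes. Of these, 54 rose and 17 fell with ATRA averaged over genotypes, against 29.1% and 29.5% of all genes, and their median log2 change was 0.22. In the interaction 13 were positive and 5 negative, against 4.48% and 4.64% of all genes. Between genotypes, 29 were at least 2-fold higher in HK3-null with DMSO and 34 with ATRA, where 13% and 13.5% of all genes were, as a description. In the other direction, 2 were at least 2-fold lower with each treatment, where 10.3% and 11.5% of all genes were.

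Of the 5 other ligands tested, none passed the ATRA test averaged over genotypes in limma without the block, and 1 (TNFSF13B, the cytokine BAFF) passed with it. At an unadjusted p under 0.05, 2 of 5 did, against 62.8% of all genes. Within genotypes, 1 ligand (TNFSF13, the cytokine APRIL) rose in Cas9 control, where 20.3% of all genes did, and 2 (TNFSF13B and the interleukin IL1B) fell in HK3-null, where 25.1% of all genes did. The interaction was negative for TNFSF13B, as it was for 4.64% of all genes. These ligands were named after their values were seen. Of 16 receptors tested, 9 rose and 5 fell. TNFRSF14, the receptor HVEM, which binds LTA, rose 2.71-fold (limma, adjusted p = 4.65e-09), and its response was smaller in HK3-null by 1.16 on the log2 scale (limma, adjusted p = 1.78e-04). TNFRSF9 (4-1BB) rose 3.12-fold averaged over genotypes (limma, adjusted p = 0.00102), from 4 to 11 normalized counts in the DMSO libraries. CD40 was near the limit of detection, with 0 to 2 normalized counts in the DMSO libraries and 6 to 12 in the ATRA libraries. It cleared the expression filter only through Cas9 control ATRA, where it had 8, 7 and 12, so its place among the 9 receptors counted as rising rests on the group in which it was high.

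Of the 31 tested adaptors and kinases, 16 rose and 2 fell. TRAF1, an adaptor of TNF receptors, rose 2.68-fold (limma, adjusted p = 2.36e-04), MYD88, the adaptor of Toll-like and IL-1 receptors, rose 2.19-fold (limma, adjusted p = 6.24e-08) and RIPK1, the kinase of the TNF receptor complex, rose 1.70-fold (limma, adjusted p = 7.33e-06). The MYD88 response was larger in HK3-null by 0.62 on the log2 scale (limma, adjusted p = 0.0127). Of the 6 other subunits and IκB family genes, 3 rose and 1 fell. BCL3, a nuclear IκB that binds p50 and p52 dimers, had 42, 58 and 28 normalized counts in Cas9 control DMSO, 103, 154 and 60 in Cas9 control ATRA, 310, 509 and 306 in HK3-null DMSO and 709, 1096 and 581 in HK3-null ATRA. It rose 2.25-fold with ATRA (limma, adjusted p = 0.00290). The subunit gene REL rose 1.81-fold (limma, adjusted p = 4.21e-06), and NFKBID, another nuclear IκB, 1.55-fold (limma, adjusted p = 4.19e-04).

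Of 13 tested negative regulators, 7 rose and 1 fell. The decoy receptor TNFRSF10C rose 3.53-fold (limma, adjusted p = 5.45e-04), the deubiquitinase CYLD 1.81-fold (limma, adjusted p = 6.91e-07) and PDLIM2, which promotes the breakdown of nuclear RELA, 1.69-fold (limma, adjusted p = 1.84e-07). TNFRSF10C had 4, 1 and 2 normalized counts in Cas9 control DMSO and 6, 10 and 5 in Cas9 control ATRA. In HK3-null it had 29, 43 and 32 with DMSO and 131, 120 and 130 with ATRA. It cleared the expression filter only through HK3-null, so its place among the 7 rests on the groups in which it was high. Of 36 tested target genes, 19 rose and 8 fell. ICAM1, an adhesion molecule, had 1 to 5 normalized counts in Cas9 control DMSO, 514 to 637 in Cas9 control ATRA, 54 to 100 in HK3-null DMSO and 1826 to 2876 in HK3-null ATRA (averaged log2 change 6.47 ± 0.33; limma, adjusted p = 2.35e-08). The chemokine CCL2 rose 49.3-fold (limma, adjusted p = 2.86e-08) and the antiapoptotic BCL2A1 11.2-fold (limma, adjusted p = 8.55e-11). The fold with ATRA was smaller in HK3-null for ICAM1, by 2.83 on the log2 scale (limma, adjusted p = 0.0215), and for BCL2A1, by 1.22 (limma, adjusted p = 0.00151). For CCL2 the response in HK3-null minus that in Cas9 control was -1.31 on the log2 scale (limma, adjusted p = 0.228), and it passed with the replicate block (limma, adjusted p = 0.0126).

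Several members followed the replicate number across groups. TNF and NFKBIA were lowest in replicate 3 in 4 of 4 groups, NFKB2 was highest in replicate 3 in 4 of 4, RELB was highest in replicate 2 in 4 of 4 and IER3 was highest in replicate 1 in 4 of 4. The labels do not say what a replicate number shares.

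The genes whose pattern over the 12 libraries was most like that of TNF were CDC42EP3 (Pearson r = 0.997 of log2 values), MTFR2 (0.994), CD81 (0.993), AGTPBP1 (0.992) and YES1 (0.992). For LTB they were TNFRSF10B (0.998), a death receptor for TRAIL, GPAT4 (0.997), MED30 (0.994), an entry whose symbol the file holds as a date (0.993) and HOMER3 (0.993). TNFRSF10B, GPAT4 and MED30 all lie on chromosome 8, and the part of any shift of that chromosome between genotypes was not tested. CDC42EP3 had 242, 209 and 141 normalized counts in Cas9 control DMSO, 111, 82 and 69 in Cas9 control ATRA, 2018, 1950 and 1434 in HK3-null DMSO and 2343, 1942 and 1388 in HK3-null ATRA. Of 12475 genes compared, 246 had r above 0.95 with TNF and 364 with LTB. The 12 points fall into both genotypes far apart and come from the same libraries.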

How the data were processed

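RNA of 12 and chromatin of 8 HL60 libraries were read. The authors deposited per-gene log2 values of read counts scaled between libraries, with 0 written as the log2 of 0.001 (DESeq2, MACS2 and GRCh38/hg38 are named in the submitters' processing notes). The study's methods name RPKM, but all values were whole numbers once unlogged (relative tolerance 0.0001) with near-equal totals, so they were read as scaled counts. 330 rows without a gene name, at most 0.00926% of normalized counts, were left out. For ATACseq the authors deposited a normalized signal per region and kept regions with a difference between genotypes in ATRA. Members and gene lists were chosen with earlier results of these data known.

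limma 3.58.1 (R 4.3.3; lmFit, eBayes with trend) was fitted to all 12 RNAseq libraries with 1 mean per group, over 13256 genes with a group mean log2 above 3 in at least 1 group. ATACseq was fitted as log2(signal + 1) over 6214 regions with a mean signal above 17.08, the 25th percentile. p-values were adjusted by Benjamini-Hochberg and called under 0.05. Fold changes are on these log2 scales. The steps were tested on simulated data. Deviations of same-numbered RNAseq libraries from their group means correlated in all 18 pairs (r 0.178 to 0.6315, 10667 genes), so the fit with the replicate number as a block is given where it changed a call. Standard errors and intervals are from the fit without the block unless the block is named. Estimated depth came from the spacing of low values. Named genes of the pathway list were, per role, up to 3 with the largest change among those passing the averaged ATRA test. Likeness was Pearson r of deposited log2 values, the 5 highest shown for TNF and for LTB. Promoter windows came from RefSeq (250 bases before to 50 after the start), region letters from GRCh38. 1 marker list and the letters of 1 region are not reported here.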

Additional observations from a re-analysis of the deposited data

Results flagged for a closer look

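For 2 members the difference in ATRA response between HK3-null and Cas9 control cells passed when the replicate number was fitted as a block. This test is the difference between the 2 genotype contrasts, which were in view when the members were chosen. It is therefore not independent of that choice, and its p-values are a description only. For TNF the difference was 1.42 on the log2 scale (HK3-null minus Cas9 control; limma with the replicate block, adjusted p = 2.25e-05), and for RELA it was 0.204 (limma with the replicate block, adjusted p = 0.0496). With the block 21.9% of all genes passed this test, so 2 of the 9 tested members is a share near that of all genes. Without the block neither passed (limma, adjusted p = 0.0825 and 0.116). TNF fell with ATRA by 1.60 on the log2 scale in Cas9 control and had a log2 change of -0.18 in HK3-null. RELA fell by 0.17 in Cas9 control, and its log2 change in HK3-null was 0.04.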

How the results depend on the processing

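The count of members passing the ATRA test averaged over genotypes, 3, became 6 with the replicate block, 1 when a 1.5-fold change was also asked for, and 2 to 4 when single libraries were left out. In Cas9 control the count of 3 ranged from 2 to 4. In HK3-null the count of 2 became 1 without the variance trend, 1 without a filter on low values, 1 with the 1.5-fold limit and 1 to 2 with single libraries left out, IER3 being the member lost except with the 1.5-fold limit, where it was NFKB1. For the interaction the count of 0 became 1 with quantile normalization, 2 with the replicate block and 0 to 1 with single libraries left out, the member being TNF (RELA as well with the block). Between 3 and 5 regions passed. The block is given in the report wherever it changed a call of a member's RNA, and it changed no other RNA call of a member. ATACseq libraries were not paired by number (same-numbered deviations r from -0.2089 to 0.05393), and there the block left 3 regions. TNF was higher in HK3-null by 3.14 with DMSO and 4.54 with ATRA on the log2 scale when the chromosome median was subtracted before the fit.

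Of 1393 values of single genes and regions under alternatives, 1313 kept their direction and their side of the threshold and 36 changed sign, none of them called in the report. With ATRA, the RELB log2 change averaged over genotypes became -0.14 with quantile normalization and -0.035 with the chromosome median subtracted, in Cas9 control -0.20 and for its interaction 0.12, both with quantile normalization. The log2 change of the signal in the LTB region became 0.034 with quantile normalization. Without single libraries, the ranges crossing 0 were -0.41 to 0.076 for TNF in HK3-null, -0.0010 to 0.084 for NFKB1 in Cas9 control, -0.11 to 0.10 for RELB averaged, -0.16 to 0.19 for RELB in Cas9 control, -0.27 to 0.16 for RELB in HK3-null, -0.22 to 0.17 for TNFAIP3 in HK3-null, -0.18 to 1.32 for IER3 in Cas9 control and -0.036 to 0.70 for the region upstream of TNF, and for the interaction -0.50 to 0.11 for NFKB2, -0.30 to 0.14 for RELB and -0.49 to 0.23 for NFKBIA. The cause of these changes was not tested. Depth limits LTA, IER3, CD40, NCR3, ATP6V1G2 and, in Cas9 control, TNFRSF10C, at counts where a few reads move a fold.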
